A study of Mus musculus with 14 samples.

Results

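The 10 genes that mark sublining and so-called universal fibroblasts were measured in cells sorted from the mouse knee joint: Thy1, Pi16, Dpp4, Cd34, Clec3b, Dpt, Mfap5, Ly6a, Cd248 and Pdpn. They were taken as a fixed list of 10 symbols, with no measured value in the rule, and each was found by its Ensembl identifier among the 47729 genes of the count table. Of the 10, 8 passed the filter on low counts and were tested among 15015 genes, while Pi16 and Clec3b did not pass and are given as counts. The study asked how progenitor populations of the synovium, the soft tissue that lines the joint, differ in antigen-induced arthritis (AIA), a model in which mice immunized with methylated bovine serum albumin in complete Freund's adjuvant receive the same protein in the joint. All mice were C57BL6, aged 16 weeks, and knees were collected on day 10 from the joint injection.

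The CD105+ AIA group held 5 libraries of CD51+CD200-CD105+ cells from arthritic mice. The CD200+ AIA group held 5 libraries of CD51+CD200+CD105- cells from arthritic mice. The CD200+ NI group held 4 libraries of CD51+CD200+CD105- cells from non-immunized mice, which had received phosphate buffered saline. Cells positive for TER119, CD31 or CD45 had been gated out of all 3 groups, and each library came from 200 to 500 live cells, amplified with SMART-Seq v4 after collagenase release. The labels do not say whether libraries came from separate mice, so the p-values measure the spread between these libraries, which may be technical in part. No CD105+ library came from non-immunized mice, so the comparison of CD105+ AIA with CD200+ NI differs in both population and disease.

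The synovium has a thin lining layer of fibroblasts that faces the joint cavity and a looser sublining around vessels. Sublining fibroblasts are known for the surface protein Thy1 (CD90) and variably for Cd34, whereas podoplanin (Pdpn) is found on fibroblasts of both layers and increases in inflamed synovium. Universal fibroblasts, described across mouse tissues, are marked by Pi16 or by dermatopontin (Dpt), and the Pi16 cells often carry Dpp4, Ly6a (Sca-1), Clec3b and Mfap5 and sit around vessels. Anti-CD90.2 was part of the antibody panel, but no gate on it is given for the sorted cells. In these bulk samples, fewer cells of a type and less RNA per cell cannot be told apart.

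Pdpn and Cd34 were the members whose CD105+ AIA libraries all lay below every CD200+ AIA library, so their start regions are shown. Pdpn lies on chromosome 4, bases 143267431 to 143299564 of the minus strand, and Cd34 on chromosome 1, bases 194938819 to 194961279 of the plus strand, both in GRCm38. The sequences are from RefSeq, build GRCm38.p6, which gave start regions for 5 of the 10 genes. Each runs 5′ to 3′ on the gene's own strand, from 250 bases before the annotated start to 25 bases after it, in lower case with motif matches in capitals. The Pdpn region is chr4:143299540-143299814 and the Cd34 region is chr1:194938571-194938845.
Pdpn: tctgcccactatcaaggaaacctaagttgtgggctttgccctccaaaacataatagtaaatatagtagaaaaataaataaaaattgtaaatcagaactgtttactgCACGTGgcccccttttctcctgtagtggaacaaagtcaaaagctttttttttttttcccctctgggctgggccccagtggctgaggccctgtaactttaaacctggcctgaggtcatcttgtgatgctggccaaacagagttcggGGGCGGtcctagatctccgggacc
Cd34: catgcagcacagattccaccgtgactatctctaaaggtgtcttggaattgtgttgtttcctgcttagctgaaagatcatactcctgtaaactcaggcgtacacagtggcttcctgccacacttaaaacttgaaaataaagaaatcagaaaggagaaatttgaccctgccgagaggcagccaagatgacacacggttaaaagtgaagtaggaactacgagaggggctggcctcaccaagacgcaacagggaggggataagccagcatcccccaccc
In all, 5 motifs were searched on both strands, and the last of them and the 25 bases after the start were added after the sequences had been read. TATAAA was found in 12.99% of 32851 mouse start regions of this length, GGGCGG (GC box) in 34.44%, CCAAT in 35.76%, TGANTCA, an AP-1 site, in 7.348% and CACGTG, an E-box, in 6.682%. The Pdpn region held CACGTG from base 144 before the start and GGGCGG from base 2 after it. Both matches rest on what was added after reading, so they cannot be weighed against the shares of all start regions. The Cd34 region held none of these letters.

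The libraries held between 12177437 and 40331071 counts in total, of which 2919666 to 18553803 fell on genes and the rest on 92 ERCC spike-in RNAs. In 3 libraries, CD200+ NI library 2 and CD200+ AIA libraries 5 and 6, spike-ins took over 80% of the counts. Levels are given as CPM, the counts scaled to a common total of gene counts after TMM scaling, with spike-ins left out. The sort was visible in Cd200, which averaged 2.29 CPM in CD105+ AIA, 418 CPM in CD200+ AIA and 590 CPM in CD200+ NI libraries. It was lower in CD105+ AIA than in CD200+ AIA libraries, with a log2 fold change of -7.50 (edgeR quasi-likelihood, adjusted p = 0.0123). Eng, which encodes CD105, averaged 6.60 CPM in CD105+ AIA, 0.502 CPM in CD200+ AIA and 5.27 CPM in CD200+ NI libraries, and did not pass the test against CD200+ AIA (log2 fold change 3.64, adjusted p = 0.170). Itgav (CD51) averaged 7.41, 35.8 and 32.2 CPM in CD105+ AIA, CD200+ AIA and CD200+ NI libraries and did not pass either (adjusted p = 0.267 against CD200+ AIA).

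Of the 8 tested members, Pdpn alone passed the threshold in the edgeR fit with TMM scaling; DESeq2, voom and a fit of 2 groups called other members too, and scaling to the spike-ins called none. Pdpn fell in CD105+ AIA cells relative to CD200+ AIA cells, by 18.4-fold, and relative to CD200+ NI cells, by 14.0-fold. None of the 8 tested members passed the threshold between arthritic and non-immunized CD200+ cells. Cd34 and Dpt had lower means, and Cd248 and Ly6a higher means, in CD105+ AIA than in CD200+ AIA libraries, but none of these passed. Pi16, Dpp4 and Clec3b had counts in few libraries.

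**Figure D1:**
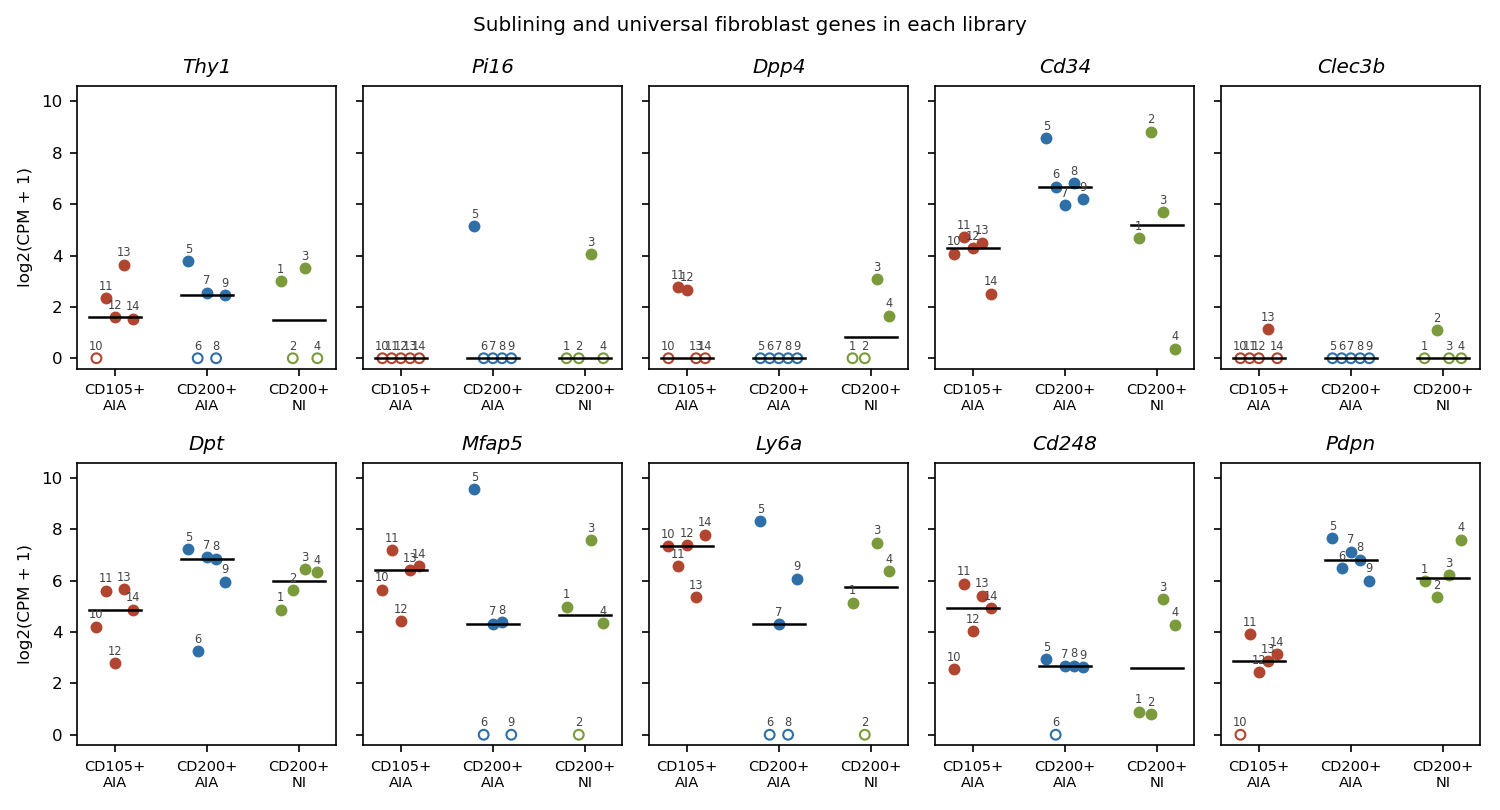
Level of each of the 10 genes in every library, as log2(CPM + 1) on the vertical axis, by group on the horizontal axis. Points carry library numbers, open points are libraries with 0 counts, and black bars are group medians. Pdpn in CD105+ AIA libraries lies below both CD200+ groups, while Pi16 and Clec3b rest on single libraries.

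Pdpn encodes podoplanin, a mucin-type membrane glycoprotein that binds the platelet receptor CLEC-2 and links to ezrin and the actin cytoskeleton. It had 0, 14.0, 4.39, 6.31 and 7.79 CPM in CD105+ AIA libraries 10 to 14. In CD200+ AIA libraries 5 to 9 it had 200, 87.9, 139, 112 and 63.2 CPM, and in CD200+ NI libraries 1 to 4 it had 61.5, 39.8, 72.8 and 192 CPM. All 5 CD105+ libraries lay below all 9 CD200+ libraries, and the 2 CD200+ groups overlapped.

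Pdpn had a log2 fold change of -4.20 ± 0.893 (SE) in CD105+ AIA against CD200+ AIA libraries (edgeR quasi-likelihood, Benjamini-Hochberg adjusted p = 0.0100). Against CD200+ NI libraries it was -3.80 ± 0.895 (SE, adjusted p = 0.0141, same test). Of 8 members, 1 was called lower and 0 higher in each comparison. Of all 15015 genes, 11.3% were called in the comparison with CD200+ AIA (4.79% higher, 6.48% lower) and 13.2% in that with CD200+ NI (5.57% higher, 7.63% lower). Groups did not overlap, with CD105+ AIA lower, for 6.33% and 11.5% of all genes in these comparisons. Scaling to the spike-ins put the median log2 change of all genes at 1.22 in CD105+ AIA against CD200+ AIA and at 1.21 against CD200+ NI, and ended the Pdpn call at -2.29 (adjusted p = 0.315) and -2.10 (adjusted p = 0.371). With the 3 libraries of over 80% spike-ins left out, Pdpn was at -3.98 (adjusted p = 0.0215) and -4.03 (adjusted p = 0.0157).

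Cd34 encodes a sialomucin of blood progenitor cells, endothelium and many stromal cells. It had 15.8, 25.0, 18.5, 21.7 and 4.71 CPM in CD105+ AIA libraries 10 to 14. The CD200+ AIA libraries 5 to 9 had 379, 102, 61.0, 112 and 72.0 CPM, and the CD200+ NI libraries 1 to 4 had 24.8, 450, 50.3 and 0.289 CPM. The CD105+ AIA libraries all lay below the CD200+ AIA libraries, whereas the CD200+ NI libraries spanned the range of both.

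The Cd34 log2 fold change in CD105+ AIA against CD200+ AIA was -3.08 ± 1.16 (SE, edgeR quasi-likelihood, adjusted p = 0.101). Against CD200+ NI it was -2.94 ± 1.19 (SE, adjusted p = 0.116). Without CD200+ NI library 2 this value was -0.50 (adjusted p = 0.789), and without CD200+ NI library 4 it was -3.26 and passed (adjusted p = 0.0366). The exons of Cd34 overlap an antisense gene, Gm16897. No strand setting of the counting is given, so reads of the 2 genes within the overlap cannot be told apart.

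Thy1 encodes CD90, a small GPI-anchored glycoprotein used to separate sublining from lining fibroblasts. It had 0, 4.06, 2.00, 11.5 and 1.91 CPM in CD105+ AIA libraries 10 to 14. In CD200+ AIA libraries 5 to 9 it had 12.7, 0, 4.89, 0 and 4.46 CPM, and in CD200+ NI libraries 1 to 4 it had 7.00, 0, 10.3 and 0 CPM. Every group held at least 1 library at 0 and libraries with counts, and the means of 3.90 ± 4.50, 4.41 ± 5.19 and 4.33 ± 5.19 CPM (SD, n = 5, 5 and 4, in CD105+ AIA, CD200+ AIA and CD200+ NI) lay within the spread.

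For Thy1 the log2 fold change in CD105+ AIA against CD200+ AIA was -0.17, with a 95% interval of -3.94 to 3.60 and an adjusted p of 0.973 in edgeR's test. That interval covers changes of over 10-fold in either direction.

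Cd248 encodes endosialin, a C-type lectin-like receptor of stromal fibroblasts and pericytes. It had 4.88, 57.9, 15.3, 41.5 and 29.5 CPM in CD105+ AIA libraries 10 to 14. The CD200+ AIA libraries 5 to 9 had 6.64, 0, 5.34, 5.44 and 5.21 CPM, and the CD200+ NI libraries 1 to 4 had 0.868, 0.744, 37.7 and 18.6 CPM. In CD105+ AIA, 4 of 5 libraries lay above every CD200+ AIA library, and library 10 lay among them.

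Cd248 had a log2 fold change of 2.71 ± 1.26 (SE) in CD105+ AIA against CD200+ AIA (edgeR quasi-likelihood, adjusted p = 0.183) and of 1.04 ± 1.28 (SE, adjusted p = 0.640) against CD200+ NI. In CD200+ AIA against CD200+ NI it was -1.67 ± 1.26 (SE, adjusted p = 1).

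Ly6a encodes Sca-1, a GPI-anchored Ly6 protein of mouse stem and stromal cells. It had 162, 94.1, 166, 40.1 and 220 CPM in CD105+ AIA libraries 10 to 14. In CD200+ AIA libraries 5 to 9 it had 316, 0, 18.7, 0 and 66.6 CPM, and in CD200+ NI libraries 1 to 4 it had 34.4, 0, 177 and 81.0 CPM. Every CD105+ AIA library had Ly6a counts, while 2 CD200+ AIA libraries and 1 CD200+ NI library had none, and the groups overlapped.

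For Ly6a the log2 fold change was 0.77 ± 1.61 (SE) in CD105+ AIA against CD200+ AIA (edgeR quasi-likelihood, adjusted p = 0.824), and 2.75 (adjusted p = 0.362) without CD200+ AIA library 5. Of 3 tested Ly6 genes from the same family list, Ly6e rose, with 869.7 CPM in CD105+ AIA and 188.6 CPM in CD200+ AIA libraries (log2 fold change 2.21, adjusted p = 0.00296), and Ly6c1 and Ly6c2 did not pass. Ly6 genes are similar in sequence, and reads may have been split between them.

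Dpt encodes dermatopontin, a small matrix protein that binds decorin and collagen. It had 17.5, 48.0, 5.91, 49.9 and 28.3 CPM in CD105+ AIA libraries 10 to 14. In CD200+ AIA libraries 5 to 9 it had 149, 8.49, 120, 115 and 61.0 CPM, and in CD200+ NI libraries 1 to 4 it had 28.3, 48.7, 86.3 and 78.8 CPM. Apart from library 6, the CD200+ AIA libraries lay above all CD105+ AIA libraries.

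Dpt averaged 29.9 ± 19.1 CPM in CD105+ AIA, 90.8 ± 55.8 CPM in CD200+ AIA and 60.5 ± 26.9 CPM in CD200+ NI libraries (SD, n = 5, 5 and 4). The log2 fold change was -1.60 ± 0.697 (SE) in CD105+ AIA against CD200+ AIA (edgeR quasi-likelihood, adjusted p = 0.155) and -1.02 ± 0.720 (SE, adjusted p = 0.392) against CD200+ NI. Under spike-in scaling the change against CD200+ NI turned to 0.55 (adjusted p = 0.814).

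Mfap5 encodes a microfibril-associated glycoprotein that binds fibrillin. It had 49.3, 144, 20.4, 83.8 and 92.9 CPM in CD105+ AIA libraries 10 to 14. The CD200+ AIA libraries 5 to 9 had 752, 0, 19.1, 19.9 and 0 CPM, and the CD200+ NI libraries 1 to 4 had 30.8, 0, 189 and 19.4 CPM. Every CD105+ AIA library lay above 4 of the 5 CD200+ AIA libraries and below library 5.

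That library set the direction of the fit. For Mfap5 the log2 fold change in CD105+ AIA against CD200+ AIA was -1.02 ± 1.78 (SE, edgeR quasi-likelihood, adjusted p = 0.785) with it and 3.02 (adjusted p = 0.314) without it. In CD200+ AIA against CD200+ NI it was 1.40 ± 1.93 (SE, adjusted p = 1) with it and -2.59 (adjusted p = 1) without it.

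Clec3b encodes tetranectin, a plasminogen-binding C-type lectin, and was counted in 2 libraries. CD105+ AIA library 13 held 21 counts (1.19 CPM) and CD200+ NI library 2 held 6 counts (1.12 CPM). The other 12 libraries held 0.

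Pi16 encodes peptidase inhibitor 16 and names the Pi16+ class of universal fibroblasts. Library 5 of CD200+ AIA held 169 counts (34.0 CPM), library 3 of CD200+ NI held 249 counts (15.7 CPM), and the other 12 libraries, all 5 of CD105+ AIA among them, held 0. Against a floor of 3 counts over the pooled CD105+ AIA libraries, the Pi16 mean was 142.8-fold higher in CD200+ AIA and 82.29-fold higher in CD200+ NI. Each of these means rests on 1 library. The means weigh all libraries equally while the floor pools their counts, so the ratios are not strict lower bounds. Without libraries 5 and 3, all groups were at 0 and there is no fold.

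Dpp4 encodes CD26, a surface dipeptidyl peptidase that trims chemokines. It had 5.85 and 5.34 CPM (98 and 56 counts) in CD105+ AIA libraries 11 and 12, and 7.50 and 2.14 CPM (119 and 37 counts) in CD200+ NI libraries 3 and 4, with 0 elsewhere. All 5 CD200+ AIA libraries were at 0. Against the pooled floor of that group, the Dpp4 mean was 38.95-fold higher in CD105+ AIA and 41.94-fold higher in CD200+ NI. As for Pi16, these ratios are not strict lower bounds. Neither difference passed (edgeR quasi-likelihood, adjusted p = 0.119 for CD105+ AIA and 0.675 for CD200+ NI). The exons of Pi16 and of Dpp4 each overlap an antisense gene.

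**Figure D2:**
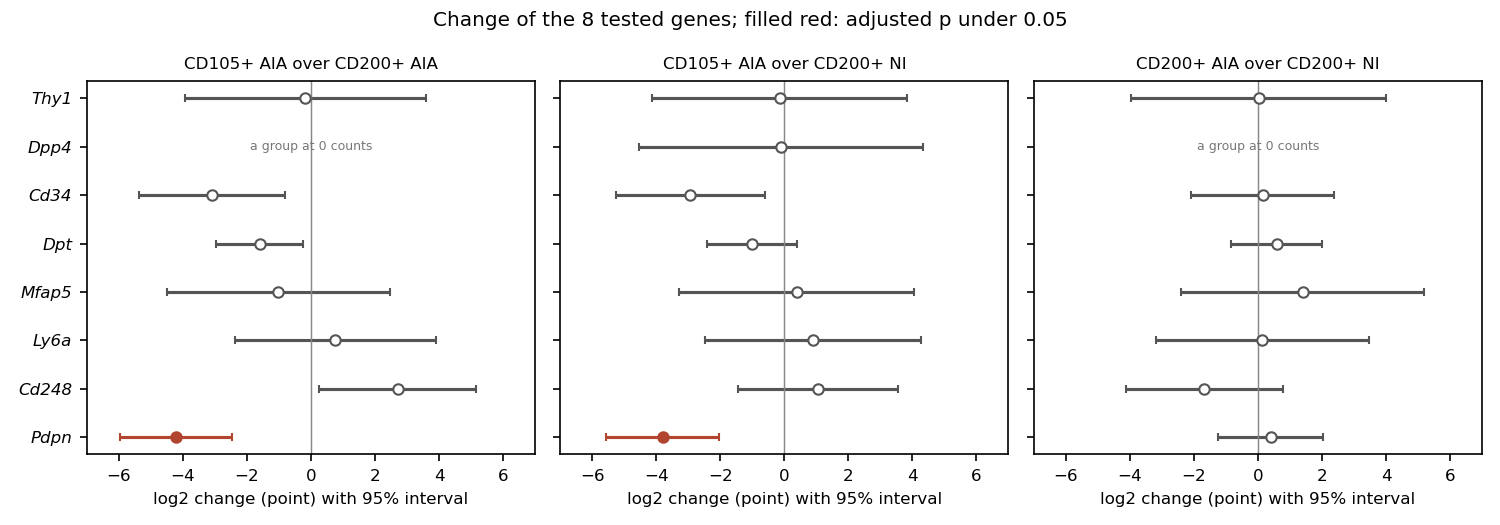
Log2 fold change of the 8 tested genes (horizontal axis) in the 3 comparisons, with bars of the 95% interval from edgeR's quasi-likelihood fit. Pdpn, filled red, is past the threshold of 0.05 in both comparisons of CD105+ AIA cells. Dpp4 has no point where a group was at 0.

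Between CD200+ AIA and CD200+ NI libraries, 0 of 8 members and 0% of all genes passed in edgeR's quasi-likelihood test, and 915 genes (6.09%) had an unadjusted p under 0.05. DESeq2 called 303 genes in this comparison and limma voom 4, none of them a member. The median log2 change of the 8 members was 0.14, beside -0.10 for all genes, and it turned to -1.34 without the 3 libraries of over 80% spike-ins and to -0.71 with spike-in scaling. The log2 fold changes were 0.39 for Pdpn (95% interval -1.24 to 2.03), 0.58 for Dpt (-0.84 to 2.02), 0.15 for Cd34 (-2.09 to 2.38), 0.13 for Ly6a and 0.02 for Thy1.

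In CD105+ AIA against CD200+ AIA, 3 members were above and 5 below 0, with a median log2 change of -0.59 beside -0.05 for all genes. Against CD200+ NI the split was again 3 and 5, with a median of -0.13 beside -0.24. Without the 3 libraries of over 80% spike-ins, the median in the comparison with CD200+ AIA turned to 1.35 with 1 member called, and spike-in scaling put the medians at 1.93 against CD200+ AIA and 0.87 against CD200+ NI with 0 called. These 2 comparisons share the CD105+ AIA libraries.

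Single libraries carried several members together. Library 5 was the highest of CD200+ AIA for all 8 members counted in that group, with a summed level of 1849 CPM over the 10 genes, beside 198 to 369 CPM in the other 4 libraries. Library 3 was the highest of CD200+ NI for 7 of 10 members and library 11 the highest of CD105+ AIA for 5 of 9. Library 3 also had 6755 CPM summed over the B and plasma cell genes, beside 31.5 to 87.4 CPM in the other CD200+ NI libraries. Of that list, Igkc averaged 1283 CPM in CD200+ NI libraries, and Ms4a1 and Pax5 had no counts there. Library 11 had 5565 CPM over the macrophage genes, beside 4.22 to 22.4 CPM in the other CD105+ AIA libraries. The part of these cells in the member levels was not tested. The number of members with counts ran from 3 in CD200+ AIA library 6, the library with the fewest gene counts, to 9 in CD200+ NI library 3. CD200+ AIA library 5, also low in gene counts at 4282957, had 8. In all CD105+ AIA libraries, 5 members had counts (Cd34, Dpt, Mfap5, Ly6a and Cd248), against 3 in all CD200+ AIA libraries (Cd34, Dpt and Pdpn) and 4 in all CD200+ NI libraries (Cd34, Dpt, Cd248 and Pdpn). The part of sequencing depth in these patterns was not tested.

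**Figure D3:**
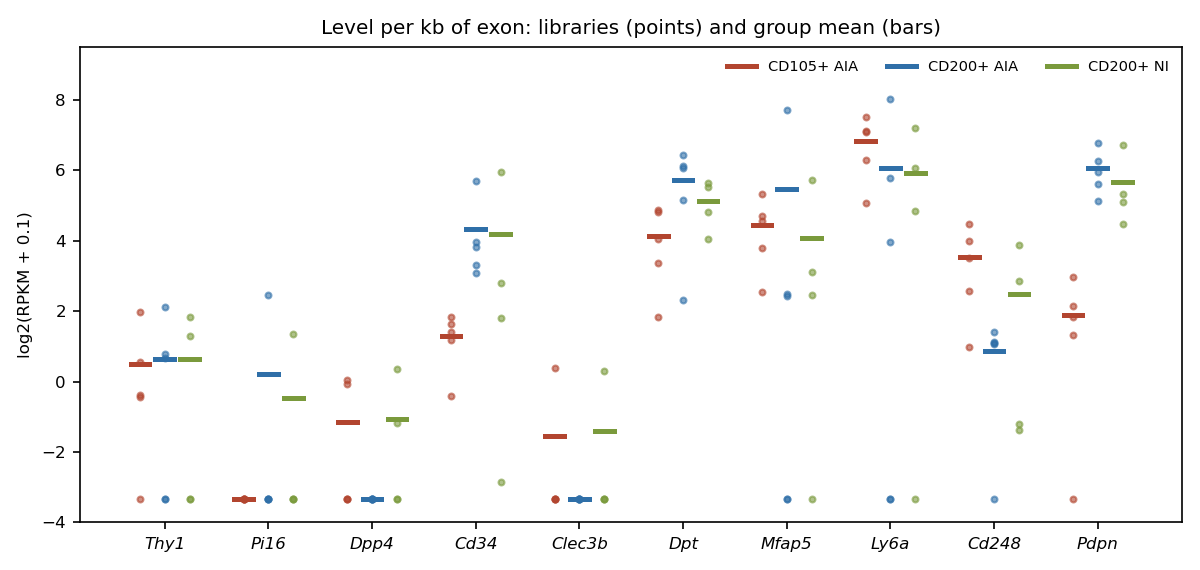
Level of the 10 genes per kilobase of exon, as log2(RPKM + 0.1) on the vertical axis, by gene on the horizontal axis. Points are libraries and bars are group means, in the order CD105+ AIA, CD200+ AIA and CD200+ NI within each gene. Ly6a has the highest mean in each group over all libraries, and in CD200+ AIA that mean rests on library 5.

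Levels of different genes were compared per kilobase of exon (RPKM, CPM divided by the union of annotated exons). In CD105+ AIA libraries the mean order was Ly6a at 113 RPKM, Mfap5 at 21.8, Dpt at 17.4, Cd248 at 11.4, Pdpn at 3.58, Cd34 at 2.35 and Thy1 at 1.30 RPKM, with Dpp4, Clec3b and Pi16 under 1 RPKM. Ly6a stood apart from Mfap5 by more than the SD, and no other neighbours did. In CD200+ AIA libraries Ly6a (66.7 RPKM), Pdpn (66.3), Dpt (52.6), Mfap5 (44.1) and Cd34 (19.9) did not differ from their neighbours beyond the SD, and then came a gap to Cd248 (1.74), Thy1 (1.47) and Pi16 (1.07 RPKM). Without library 5 the CD200+ AIA order was Pdpn at 55.4, Dpt at 44.25, Ly6a at 17.7, Cd34 at 11.9 and Mfap5 at 2.72 RPKM. In CD200+ NI libraries Ly6a (60.7 RPKM), Pdpn (50.4) and Dpt (35.1) led, Cd34 (18.0), Mfap5 (16.7), Cd248 (5.55) and Thy1 (1.45 RPKM) followed, and no neighbours differed beyond the SD. Over all libraries Pdpn ranked 2 in both CD200+ groups and 5 in CD105+ AIA. With the longest transcript as length, Cd34 lay above Pdpn in CD105+ AIA.

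The patterns most like those of the 3 members with the highest mean per kilobase in any group (Ly6a, Pdpn and Dpt) were sought among all tested genes, by the root mean square distance between centred log2(CPM + 1) profiles over the 14 libraries. For Pdpn they were Lamb2 at a distance of 0.599, Zcchc24 at 0.642 and Map7d1 at 0.669, beside a median of 2.48 for all genes. Lamb2, a laminin subunit of basement membranes, averaged 6.94 CPM in CD105+ AIA, 91.8 CPM in CD200+ AIA and 100.6 CPM in CD200+ NI libraries. For Ly6a they were Stk4 at 1.23, Col14a1 at 1.28 and Kmt5c at 1.40, beside a median of 3.05. For Dpt they were 4632427E13Rik at 0.654, Mllt10 at 0.691 and Vaultrc5 at 0.732, beside a median of 1.76.

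Further universal, sublining and elastic fibre genes that passed the test were lower in CD105+ AIA cells under TMM scaling. With spike-in scaling, 0 genes of these lists passed against CD200+ AIA, and the medians were -0.09 for the universal, -0.93 for the sublining and -1.01 for the elastic fibre list. Under TMM scaling, 6.48% of all genes were called lower and 4.79% higher against CD200+ AIA. Of 18 tested further universal fibroblast genes, 2 fell and 0 rose against CD200+ AIA, with a median log2 change of -2.05. They were Ackr3, a chemokine scavenger receptor with 20.7 CPM in CD105+ AIA and 177 CPM in CD200+ AIA libraries (log2 fold change -3.09, adjusted p = 0.0371), and Limch1 with 3.09 and 48.3 CPM in CD105+ AIA and CD200+ AIA (-3.95, adjusted p = 0.0357). Fstl1, a follistatin-like secreted glycoprotein, had 180 CPM in CD105+ AIA and 563 CPM in CD200+ AIA libraries and did not pass (adjusted p = 0.0901).

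Of 20 further sublining genes, 5 fell and 0 rose against CD200+ AIA, with a median of -1.71, beside 6.48% of all genes called lower. Gas1, a hedgehog co-receptor, had 25.9 CPM in CD105+ AIA and 185 CPM in CD200+ AIA libraries (log2 fold change -2.84, adjusted p = 0.00128). Rarres2, which encodes the chemoattractant chemerin, had 75.4 CPM in CD105+ AIA and 508 CPM in CD200+ AIA (-2.75, adjusted p = 0.00500). The chemokine Cxcl14 had 6.24 and 139 CPM in CD105+ AIA and CD200+ AIA (-4.47, adjusted p = 0.0109). Notch3 had 1.09 and 89.3 CPM in these groups (-6.29, adjusted p = 0.00955), and is also a mural cell gene. Il6 had 0.115 CPM in CD105+ AIA and 58.0 CPM in CD200+ AIA (adjusted p = 0.0300). Against CD200+ NI, where 7.63% of all genes were called lower, 8 of 20 sublining and 3 of 18 universal genes fell and 0 rose. With spike-in scaling these counts were 1 and 0, and without the 3 libraries of over 80% spike-ins they were 11 and 7. In that last fit, 1597 of all 15843 genes were called lower.

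Of 14 elastic fibre and microfibril genes, the partners of Mfap5, 3 fell and 0 rose against CD200+ AIA, with a median of -2.37. They were the latent TGF-beta binding proteins Ltbp3 (29.1 CPM in CD105+ AIA, 158 CPM in CD200+ AIA, adjusted p = 0.00236) and Ltbp1 (5.86 CPM in CD105+ AIA, 91.3 CPM in CD200+ AIA, adjusted p = 0.0272), and Loxl1, an elastin crosslinking enzyme (42.2 CPM in CD105+ AIA, 296 CPM in CD200+ AIA, adjusted p = 0.0433). The fibrillin Fbn1, which is in the universal list too, had 56.7 CPM in CD105+ AIA and 236 CPM in CD200+ AIA libraries and did not pass (adjusted p = 0.0684). Of 10 lining genes, Ezr rose (241 CPM in CD105+ AIA, 21.4 CPM in CD200+ AIA, adjusted p = 0.0347), Sema5a fell (0.514 CPM in CD105+ AIA, 34.4 CPM in CD200+ AIA, adjusted p = 0.0451), and the median was 0.43. The lining median was -0.09 without the 3 libraries of over 80% spike-ins, and with spike-in scaling 0 lining genes passed. Ezr encodes ezrin, the cytoskeletal linker that podoplanin binds. In none of these 4 lists did a gene pass in CD200+ AIA against CD200+ NI.

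**Figure D4:**
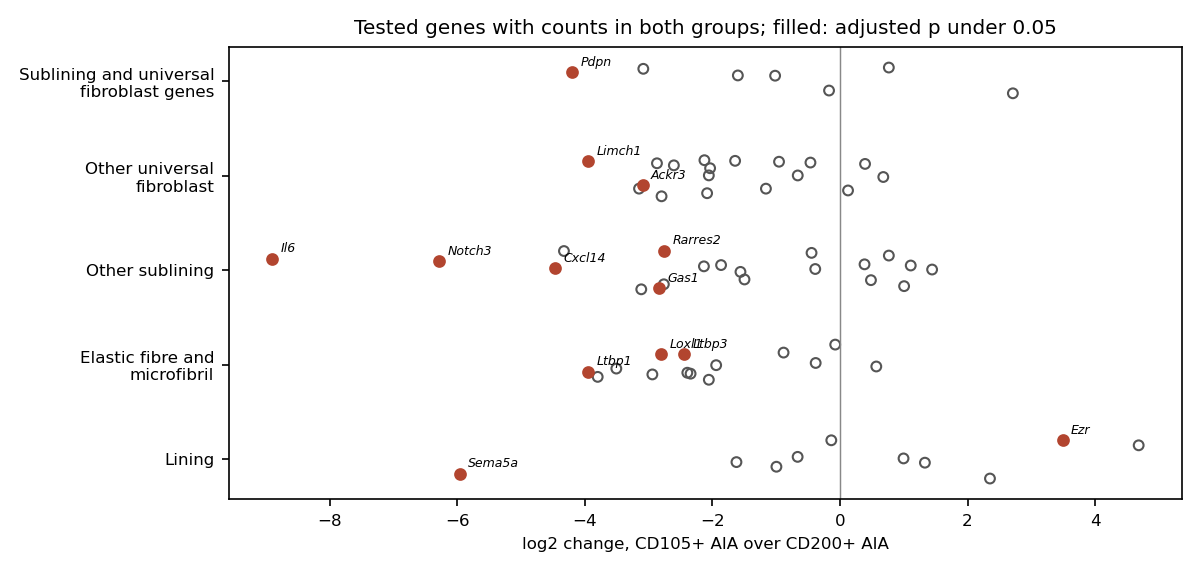
Log2 fold change in CD105+ AIA against CD200+ AIA (horizontal axis) of the tested genes with counts in both groups, by gene list down the page. Filled points are past an adjusted p of 0.05 in edgeR's test and carry their names, with Pdpn, 2 universal, 5 sublining and 3 elastic fibre genes and Sema5a below 0, and Ezr above 0.

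Some marker lists of other cell types also differed between CD105+ AIA and CD200+ AIA libraries, and others did not. Of 10 cartilage genes, 5 were higher and 5 lower in CD105+ AIA, and 0 passed. Summed over 14 osteoblast and osteocyte genes, the level was 940 ± 515 CPM in CD105+ AIA (range 123 to 1517), 38034 ± 8728 CPM in CD200+ AIA (25884 to 46903) and 79974 ± 37999 CPM in CD200+ NI libraries (SD, n = 5, 5 and 4). Of 13 tested, 9 fell against CD200+ AIA and 13 fell against CD200+ NI, and Runx2 and Mepe were among those at 0 in CD105+ AIA. Mural genes summed to 3.77 to 311 CPM in CD105+ AIA, 816 to 1885 CPM in CD200+ AIA and 619 to 1428 CPM in CD200+ NI libraries. Of these genes, 3 of 10 fell against CD200+ AIA (Notch3, Tagln and Des), and 0 with spike-in scaling, while Myh11 was at 0 in CD105+ AIA. Notch3 is also in the sublining list and Des in the skeletal muscle list.

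Skeletal muscle genes summed to 0.763 to 17.4 CPM in CD105+ AIA, 999 to 2200 CPM in CD200+ AIA and 599 to 2936 CPM in CD200+ NI libraries, and 6 of 9 tested fell against CD200+ AIA, with Pax7 and Myf5 at 0 in CD105+ AIA. Erythroid genes summed to 98521 CPM in CD105+ AIA, 2191 CPM in CD200+ AIA and 4430 CPM in CD200+ NI libraries on average. Of 11 tested, 7 rose against CD200+ AIA and 3 against CD200+ NI, although TER119+ cells had been gated out. With spike-in scaling, 9 osteoblast and osteocyte and 5 muscle genes still fell, and 5 erythroid genes still rose, against CD200+ AIA. In the blood endothelial list, which matters for Cd34, the sums were 36.4 to 54.2 CPM in CD105+ AIA, 0.136 to 141 CPM in CD200+ AIA and 0.186 to 49.1 CPM in CD200+ NI libraries, and 0 of 7 tested genes passed. Library 5, the highest in Cd34 within CD200+ AIA, was also the highest there in this list, whereas CD200+ NI library 2, the highest of its group in Cd34, was the lowest of its group in this list. In the T cell list, which matters for Thy1, Cd3e, Cd3d, Cd3g and Cd8a were at 0 in all groups, and the sums were 6.54 to 20.8 CPM in CD105+ AIA, 0 to 7.07 CPM in CD200+ AIA and 0 to 10.59 CPM in CD200+ NI libraries. Of 2 tested T cell genes, Lck passed, with 11.1 CPM in CD105+ AIA and 0 in every CD200+ AIA library (edgeR quasi-likelihood, adjusted p = 0.0287). The other, Cd28, went the other way, with 0.167 CPM in CD105+ AIA and 0.992 CPM in CD200+ AIA libraries, and did not pass (log2 fold change -2.45, adjusted p = 0.542, same test). The part of these cell types in the levels of Pdpn, Cd34 and the other members was not tested.

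**Figure D5:**
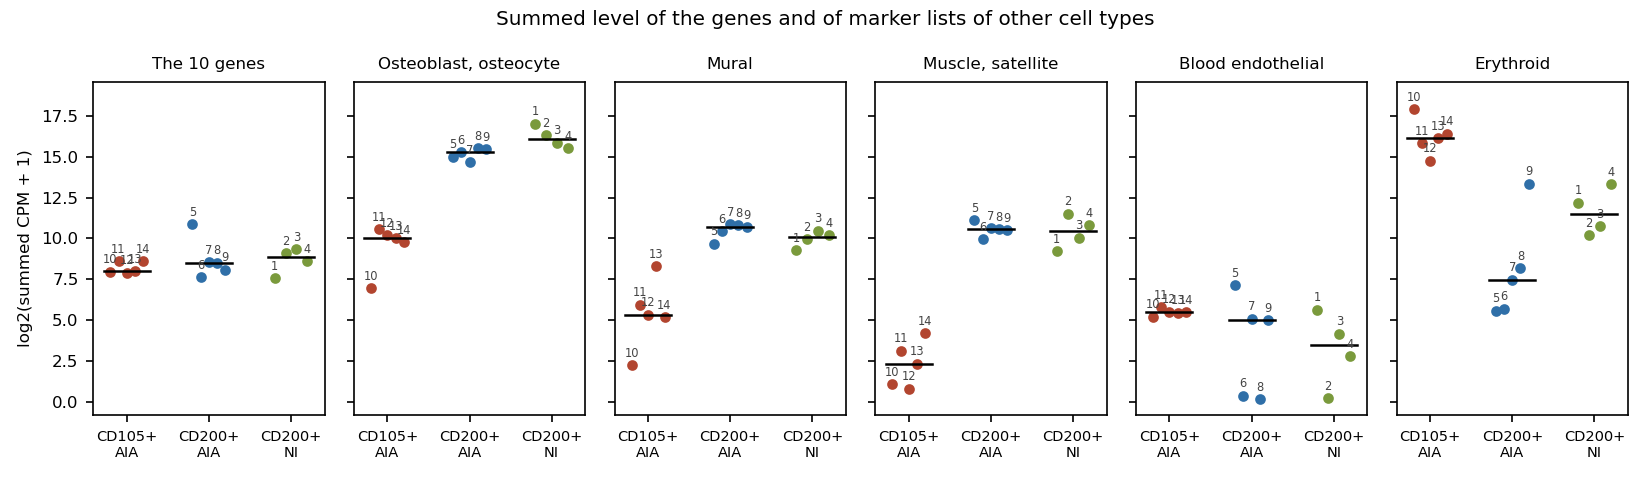
Summed level of the 10 genes and of marker lists of 5 other cell types in every library, as log2(summed CPM + 1) on the vertical axis, by group on the horizontal axis. Points carry library numbers and black bars are medians. Osteoblast, mural and muscle sums are lower, and erythroid sums higher, in CD105+ AIA than in CD200+ AIA libraries, while the sums of the 10 genes overlap.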

How the data were processed

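Smart-seq libraries of 14 sorted cell samples in 3 groups were compared from 2 deposited gene tables of counts, a raw and a filtered one of 14322 genes whose values equalled the raw counts. Per the submitters' processing notes, the tools were cutadapt, HISAT2, StringTie and edgeR on GRCm38 (mm10). How the authors derived the counts, and with which strand setting, the sources used here do not say. The 92 spike-ins were removed from the 47821 entries, leaving 47729 genes, of which 47224 matched GENCODE M21.

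All 14 libraries entered 1 edgeR 4.0.16 quasi-likelihood fit (R 4.3.3, TMM, filterByExpr with minimum count 10, robust, two-sided), with Benjamini-Hochberg adjustment over 15015 genes and a threshold of 0.05. The biological coefficient of variation was 1.28. Standard errors were taken as the log2 fold change over the square root of F, and 95% intervals from the normal distribution. The method was tested on simulated data with a dispersion of 0.4, which is less spread than in these data, so the test does not cover their noise. No 2 libraries of the same group agreed within sampling noise, and pairs across groups were not compared. Floors of 3 counts cover counting error only.

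The members, lists and tests were chosen with earlier results of these data known. The text names all members and, of each other fibroblast list, up to 4 genes with the smallest p in CD105+ AIA against CD200+ AIA and up to 4 called in another comparison, with fewer where they added nothing. Alternatives were other scalings (spike-ins, RLE), filters, DESeq2 1.42.0, limma 3.58.1 voom, a fit of 2 groups, and left-out libraries.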

Additional observations from a re-analysis of the deposited data

Results flagged for a closer look

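The 10 members in the 3 groups gave 27 sets of 4 or 5 values that were not all 0, drawn from the same 14 libraries. In 10 of these sets, a library stood apart from the others of its group by Dixon's 95% criterion. Its rate of about 1 in 20 by chance assumes normally distributed values, and these CPM held many zeros, so it does not apply here. Where all libraries but 1 were at 0, as for Pi16 and Clec3b, the criterion is always met. CD200+ AIA library 5 was the high one for Pi16 (34.0 CPM, others 0), Cd34 (379 CPM, others 61.0 to 112), Mfap5 (752 CPM, others 0 to 19.9) and Ly6a (316 CPM, others 0 to 66.6). CD200+ NI library 3 was the high one for Pi16 (15.7 CPM, others 0) and Mfap5 (189 CPM, others 0 to 30.8). CD200+ NI library 2 was the high one for Cd34 (450 CPM, others 0.289 to 50.3) and Clec3b (1.12 CPM, others 0). CD105+ AIA library 13 was the high one for Clec3b (1.19 CPM, others 0). CD200+ AIA library 6 was the low one for Cd248 (0 CPM, others 5.21 to 6.64). Libraries 2, 5 and 6 are those with over 80% spike-in counts, and the part of depth in these values was not tested.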

How the results depend on the processing

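Pdpn stayed called and below 0 in both comparisons of CD105+ AIA under every alternative but spike-in scaling, which left 0 members called in each; across left-out libraries it ran from -4.68 to -3.90 against CD200+ AIA and from -4.29 to -3.12 against CD200+ NI. Against CD200+ AIA, 2 members were called by DESeq2 (Dpt, -1.80, adjusted p = 0.0457) and by the fit of 2 groups (Cd34, adjusted p = 0.0108), and 3 by voom (Cd34, Cd248). The count of members called ran from 1 to 1 against CD200+ AIA and from 1 to 2 against CD200+ NI across left-out libraries. Of all genes, CD105+ AIA against CD200+ AIA gave 545 under spike-in scaling (390 higher, 155 lower), 3565 by DESeq2, 4624 by voom and 1090 to 1713 across left-out libraries. CD105+ AIA against CD200+ NI gave 278 (167 higher, 111 lower), 4072, 4993 and 1308 to 1762, and CD200+ AIA against CD200+ NI gave 303 by DESeq2, 4 by voom and 0 to 2 across left-out libraries.

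Reversed uncalled changes follow, and their cause was not tested. In CD200+ AIA against CD200+ NI, Thy1 was at -0.015 (RLE), -0.61 (spike-ins), -0.10 (no filter), -0.019 (filtered table), -0.044 (DESeq2), -0.33 (voom), -0.90 (without the 3 libraries of over 80% spike-ins) and -0.89 to 0.84 across left-out libraries. Cd34 was at -0.084 (RLE), -0.087 (DESeq2) and -0.55 to 2.51. Mfap5 was at -0.80 (spike-ins), -4.29 (voom), -2.60 (without the 3 libraries) and -2.59 to 3.17. Ly6a was at -1.05 (spike-ins), -0.018 (no filter), -2.85 (voom), -1.78 (without the 3 libraries) and -1.78 to 1.01, and Pdpn at -0.054 without the 3 libraries.

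In CD105+ AIA against CD200+ AIA, Thy1 was at 1.34 (spike-ins), 0.72 (voom), 0.35 (without the 3 libraries) and -1.13 to 0.76, and Mfap5 at 2.51 (spike-ins), 5.36 (voom), 2.61 (without the 3 libraries) and -1.36 to 3.02. Against CD200+ NI, Thy1 was at 0.73 (spike-ins), 0.39 (voom) and -1.11 to 0.72, Dpp4 at 1.01 (spike-ins) and -0.47 to 1.66, and Dpt at 0.55 (spike-ins).

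Cd34 levels per kilobase were 5.60 RPKM in CD105+ AIA and 47.5 RPKM in CD200+ AIA with the longest transcript as length. In CD105+ AIA this put Cd34 above Pdpn, which was at 3.58 RPKM with either length. No paired analysis was possible because the library numbers run from 1 to 14 without repeating between groups. Gene counts as low as 2919666 limit what can be said of members with few counts.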
